A study of Mus musculus with 12 samples.

Results

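The regions described here are stretches of the mouse genome where a Zic1/2 peak was absent at DIV1 and common afterwards. The peak lists of 12 libraries were merged wherever peaks overlapped by at least 1 bp on chromosomes 1 to 19 and X. Regions were thus chosen by the presence of listed peaks. A region was kept if it held a peak in 0 of 3 DIV1 libraries and in at least 7 of the 9 libraries of DIV3, DIV5 and DIV7. The rule left 742 of 282545 regions, called gained regions below. They were 3.05% of the 24294 regions with a peak in at least 7 later libraries, and since the rule set this contrast nothing is read from that share. A peak in 7 later libraries was found in 440 gained regions, in 8 in 229 and in all 9 in 73.

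The study followed Zic1/2 binding in cultured mouse cerebellar granule neurons on days in vitro 1, 3, 5 and 7 (DIV1, DIV3, DIV5, DIV7). Each day had 3 libraries that the series design calls biological replicates. All 12 were made by CUT&RUN with an antibody against the C terminus of Zic1/2. The groups shared every condition named in the labels except the day and cytosine arabinoside, which kills dividing cells and was added at 1 uM on day 2, so only DIV1 came before it. The day and the drug therefore cannot be told apart at the DIV1 boundary. The cultures were sampled in bulk, so more binding per cell and more cells of a bound type cannot be told apart either. The files hold binding and no expression, so the labelled cell type was not checked against expressed markers.

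Granule neurons of the cerebellum and their progenitors express Zic1 and Zic2, a pair of zinc finger transcription factors. Their fingers resemble those of the Gli factors of the Hedgehog pathway, and they can bind at promoters and at distal sites. As granule neurons leave the cell cycle and mature they switch on genes for synapses and receptors, among them the GABA receptor subunit gene Gabra6, a classical marker of the mature granule neuron. In CUT&RUN an antibody tethers a nuclease that cuts the DNA beside the bound protein, and the released fragments are sequenced.

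A few gained regions covered the start of a neuronal gene. RefSeq windows of GRCm38.p6, the build of the peaks, ran from 250 bases before to 50 bases after a transcription start, and 21 such windows of 18 genes overlapped a gained region. The windows shown are those of 5 genes of neuronal function or expression, chosen after the values were seen. Apart from these 5 and Zcchc4, the 18 genes were predicted ones (symbol with Gm or Rik). Other gained regions that covered a gene end, such as those at Camk2a and Amer2, overlapped none of the windows used. The windows thus need not include every gene start under a gained region. Gabra6 encodes the alpha6 and Gabrb2 the beta2 subunit of the GABA-A receptor, Shisa7 an auxiliary protein of receptors at synapses, Eno2 the enolase of neurons and Ctxn2 a small membrane protein of the cortexin family. Capitals mark CAGCAGG, the core of the known Zic motif, and GGGTGG, part of the known Gli motif, on either strand.

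Gabra6: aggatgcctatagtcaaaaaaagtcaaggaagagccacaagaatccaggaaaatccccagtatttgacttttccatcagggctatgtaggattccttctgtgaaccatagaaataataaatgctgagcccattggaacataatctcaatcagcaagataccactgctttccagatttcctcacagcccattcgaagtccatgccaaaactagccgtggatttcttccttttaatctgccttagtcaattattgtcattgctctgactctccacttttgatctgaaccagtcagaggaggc
Gabrb2: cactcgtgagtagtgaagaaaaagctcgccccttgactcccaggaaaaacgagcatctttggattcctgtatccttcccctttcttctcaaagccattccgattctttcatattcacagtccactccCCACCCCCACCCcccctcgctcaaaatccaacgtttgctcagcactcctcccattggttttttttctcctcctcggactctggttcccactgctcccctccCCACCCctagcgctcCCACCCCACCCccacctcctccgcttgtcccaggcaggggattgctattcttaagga
Eno2: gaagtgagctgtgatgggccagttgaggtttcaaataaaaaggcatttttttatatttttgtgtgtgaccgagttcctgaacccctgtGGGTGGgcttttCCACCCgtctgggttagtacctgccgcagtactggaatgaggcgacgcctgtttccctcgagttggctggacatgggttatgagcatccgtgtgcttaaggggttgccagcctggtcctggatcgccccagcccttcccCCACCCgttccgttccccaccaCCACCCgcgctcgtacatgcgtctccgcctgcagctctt
Shisa7: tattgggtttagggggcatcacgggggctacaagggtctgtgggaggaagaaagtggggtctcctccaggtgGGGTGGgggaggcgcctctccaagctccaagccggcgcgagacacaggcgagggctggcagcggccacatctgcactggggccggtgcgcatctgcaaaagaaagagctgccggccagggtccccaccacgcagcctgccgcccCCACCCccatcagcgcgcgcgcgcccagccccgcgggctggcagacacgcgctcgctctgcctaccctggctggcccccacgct
Ctxn2: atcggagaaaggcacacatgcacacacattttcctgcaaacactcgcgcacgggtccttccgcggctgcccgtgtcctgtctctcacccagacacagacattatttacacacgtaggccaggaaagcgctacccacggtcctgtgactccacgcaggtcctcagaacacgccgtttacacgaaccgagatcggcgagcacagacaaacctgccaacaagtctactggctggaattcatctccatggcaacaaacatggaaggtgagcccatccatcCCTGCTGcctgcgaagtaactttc

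The windows lay at chr11:42321023-42321322 on the minus strand for Gabra6, chr11:42420524-42420823 on the plus strand for Gabrb2 (1 of its 3 windows), chr6:124769624-124769923 on the minus strand for Eno2, chr7:4844647-4844946 on the minus strand for Shisa7 and chr2:125136442-125136741 on the plus strand for Ctxn2. The Gabrb2 window shown held GGGTGG at 5 places, while its other windows over the gained region held it at 1 and 0. The Eno2 window held it at 4 places, the Shisa7 window at 2, and the Ctxn2 window held CAGCAGG once near its 3′ end. The Gabra6 window held neither word, which says only that these letters are not in this window. Over all 21 windows at gained regions, CAGCAGG was found in 3 (14.3%) and GGGTGG in 7 (33.3%). These windows are not all distinct. Those of 1700049E17Rik1 and 1700049E17Rik2 have the same sequence, Gm33496 has overlapping windows, and Gabrb2 counts 3 times. Of all 32619 windows 10.6% held CAGCAGG and 31.6% held GGGTGG. A match of letters is not evidence of a bound site. Windows at gained regions had a median GC content of 52.3% and a median of 5 CpG dinucleotides, close to the 53% and 7 of all windows. The 9084 windows overlapping regions called in all 12 libraries had medians of 63.7% and 24.

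At Gabra6 the gained region (chr11:42320401-42321698) lay across the start of the gene. Its peaks held 55, 55 and 35 reads at DIV3, 47 and 44 at DIV5 with no peak in replicate 3, and 10, 27 and 11 at DIV7. The DIV3 and DIV5 libraries overlapped and the DIV7 libraries lay below both, but DIV7 replicates 1 and 3 also had the fewest reads in peaks of all libraries. The nearest DIV1 peak was 137295 bp away. The neighbouring subunit gene Gabrb2 had a gained region over annotated starts (chr11:42420170-42421094), with 60, 18 and 30 reads at DIV3, 21 and 25 in DIV5 replicates 1 and 2, and 9 and 36 in DIV7 replicates 1 and 2. DIV5 replicate 3 and DIV7 replicate 3 had no peak there, and the nearest DIV1 peak was 47180 bp away.

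Cbln3, which encodes a cerebellin of granule neurons and belongs to the synaptic organiser family, had a gained region inside the gene (chr14:55882036-55883291), 965 bp from the gene end that holds the start. It held 20, 25 and 12 reads at DIV3, 83, 49 and 17 at DIV5 and 33, 63 and 47 at DIV7. Each DIV7 library exceeded each DIV3 library there, and DIV5 overlapped DIV3. The start of Cbln3 itself was under a separate region (chr14:55883831-55886585) with a peak in all 12 libraries, which held 69 to 118 reads at DIV1 and 45 to 169 at the later days, so the DIV1 libraries lay within the later range. The gained region was thus 657 bp from the nearest DIV1 peak.

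Camk2a is the gene of the alpha subunit of the calcium and calmodulin dependent kinase of synapses. A gained region (chr18:60924841-60926126) lay across the lower-coordinate end of its span, at 60925307. It held 84, 37 and 37 reads at DIV3 and 69, 49 and 13 at DIV5, but at DIV7 it had a peak only in replicate 1, with 27 reads. The nearest DIV1 peak was 163 bp away, so the absence at DIV1 holds for this stretch and not for its immediate surroundings. At Amer2, which encodes a membrane-associated regulator of Wnt signalling, a gained region at a gene end (chr14:60372531-60373803) held 30, 14 and 58 reads at DIV3, 93, 75 and 32 at DIV5 and 32, 75 and 27 at DIV7. A further region in the same gene (chr14:60377156-60380586) was called in all 12 libraries and held 183 to 287 reads at DIV1.

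The regions at Eno2, Shisa7 and Ctxn2 had a peak in 8, 7 and 7 later libraries. The Eno2 region also overlapped a gene end of Lrrc23, and the Shisa7 region a gene end of Isoc2b. At Eno2 (chr6:124768022-124770027) DIV7 replicate 2 held 120 reads, and the other 7 libraries with a peak held 9 to 24. At Shisa7 (chr7:4844009-4845619) the reads were 35, 28 and 10 at DIV3, 24, 38 and 10 at DIV5 and 29 in DIV7 replicate 2, the only DIV7 library with a peak. At Ctxn2 (chr2:125135751-125136972) they were 54 and 21 in DIV3 replicates 1 and 2, 13, 13 and 28 at DIV5, and 7 and 33 in DIV7 replicates 1 and 3. The nearest DIV1 peaks were 3058 bp from the Eno2 region, 6902 bp from the Shisa7 region and 11537 bp from the Ctxn2 region.

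Other gene ends with a gained region among the 10 of highest signal belonged to Tgs1, Efcab1, Sptssb and Gm4981. Tgs1 encodes an RNA cap methyltransferase, and the region 530 bp from its span (chr4:3617154-3618437) held 57, 44 and 29 reads at DIV3, 61, 69 and 39 at DIV5 and 26, 75 and 14 at DIV7. Efcab1 encodes an EF-hand protein, and its region held 40 to 68 reads at DIV3 and 11 to 13 in the DIV7 libraries with a peak. Sptssb encodes a small subunit of the serine palmitoyltransferase of sphingolipid synthesis, and its region ranged from 9 reads in DIV5 replicate 3 to 58 in DIV7 replicate 2. The region at Gm4981, a predicted gene, had 9 to 28 reads. Gm14595 on chromosome X, also among the 10, lies in a multi-copy array described further on. Sybu, which encodes syntabulin, a linker of presynaptic cargo to kinesin, and Slc8a2, which encodes a sodium-calcium exchanger of neurons, also had gained regions at a gene end, with 12 to 40 and 9 to 51 reads, and were picked out after their values were seen. In the grid of reads by library the missing later peaks of these regions are most frequent in DIV7 replicate 3.

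**Figure D1:**
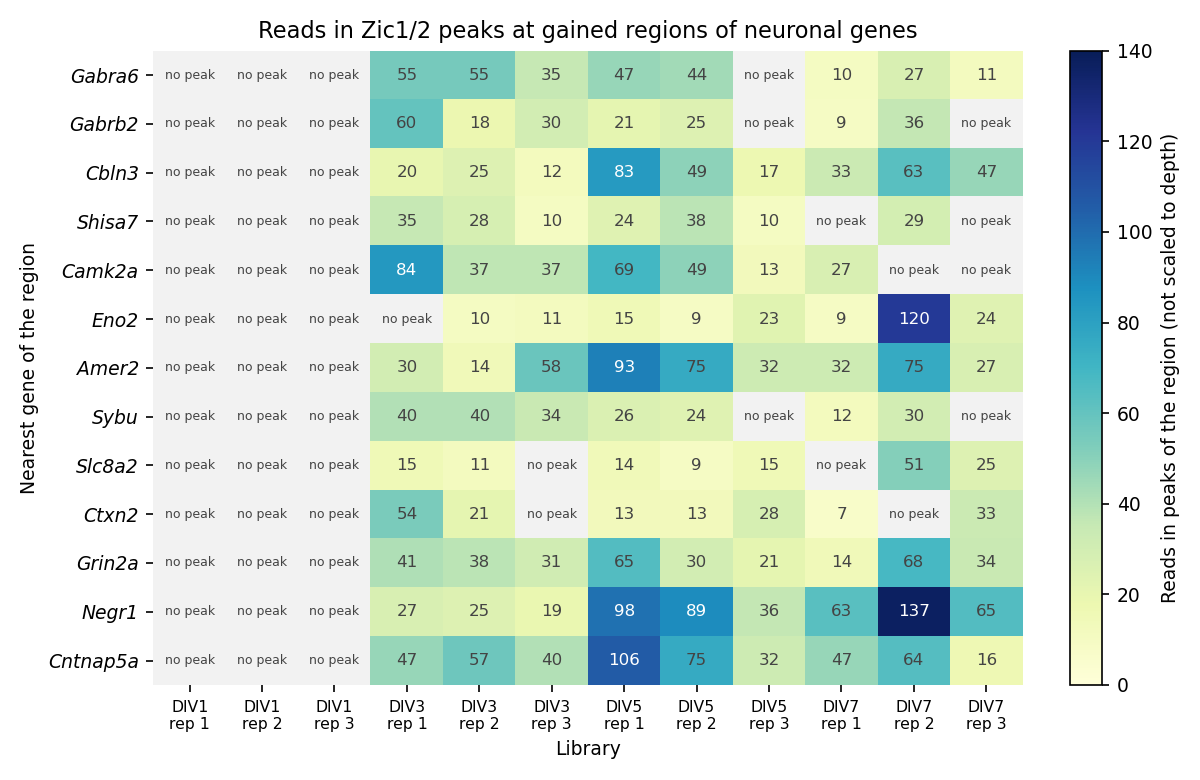
Reads in peaks of 13 gained regions at neuronal genes (rows, by nearest gene) in the 12 libraries (columns); colour and number give whole reads, not scaled to depth, and grey cells had no peak. All DIV1 cells are grey by the rule, and the highest count is 137 reads at Negr1 in DIV7 replicate 2.

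Few of the 742 gained regions lay at gene ends when whole peaks were used. Within 1 kb of an end of a protein-coding gene span lay 33 of the 742 (4.45%, 95% Wilson interval 3.18 to 6.18%), farther inside a gene 272 (36.7%) and between genes 437 (58.9%), of which 208 (28.0% of all) were more than 50 kb from any gene. Among the 12241 regions called in all 12 libraries 58.6% lay at a gene end. Among the 4032 regions with the opposite pattern, a peak in all 3 DIV1 libraries and in at most 2 later ones, 444 lay at a gene end (lower 95% Wilson bound of the share 10.1%), and the share was 9.10% among all 282545 regions. Regions just outside the rule were close to the gained ones, with 5.10% of 824 regions called in 6 later and no DIV1 library and 6.82% of 1246 regions called in 1 DIV1 and at least 7 later libraries. The low share depended on the use of whole peaks. With only the maximum-signal part of each peak, the rule left 371 regions, of which 56 (15.1%) lay at a gene end, against 13.3% of all 512038 regions merged that way. The intervals cover counting error only, and regions of a library are not independent replicates.

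**Figure D2:**
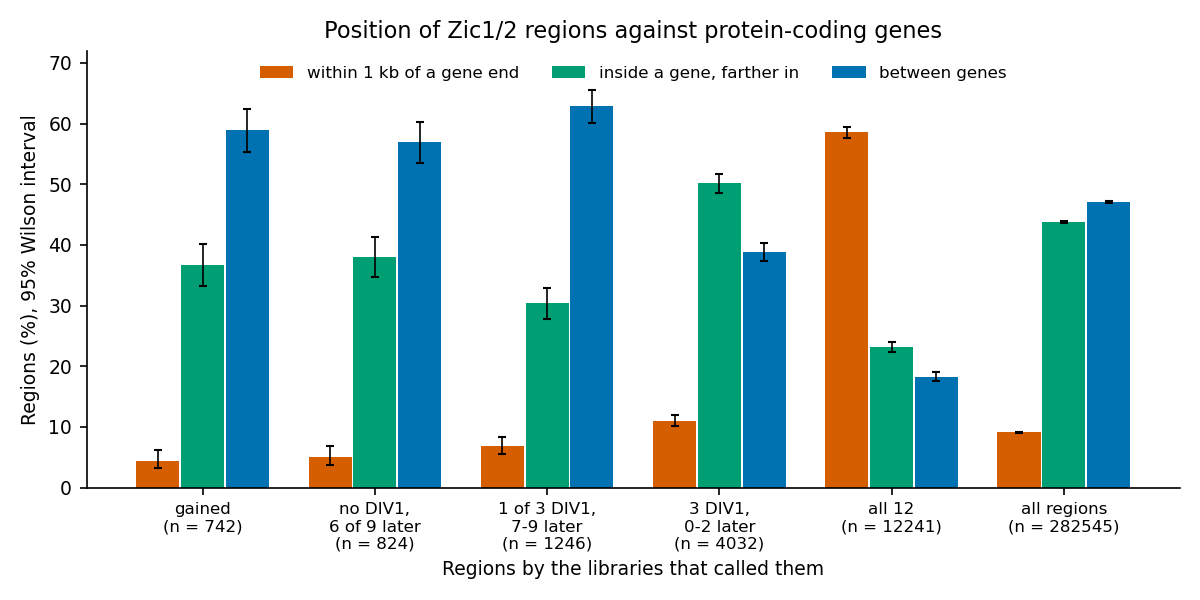
Share of regions (%) within 1 kb of a protein-coding gene end, farther inside a gene, or between genes, for gained regions and 5 other sets; bars with 95% Wilson intervals, from whole peaks. Gained regions have the lowest share at gene ends (4.45%) and regions called in all 12 libraries the highest (58.6%).

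In width and signal, gained regions lay between all regions and those called in all 12 libraries. These sets differ by definition in the number of libraries with a peak, and a merged region can only widen as peaks are joined. Of all 282545 regions, 146746 had a peak in only 1 later library and in 0 DIV1 libraries. The order is therefore not read as a trait of gained regions. Their median width was 855 bp, against 297 bp for all regions and 1690 bp for regions called in all 12 libraries. The median over gained regions of the median reads per later library was 20, against 11 over all regions and 71 at regions called in all 12 libraries. The maximum signal, the highest coverage in a peak, was ranked in each library over the regions called there, and the mean of these percentiles over the later libraries with a peak had a median of 54.6 in gained regions, 36.0 over all regions and 83.4 at regions of all 12. At the threshold the values changed in steps: the median percentile was 48.6 just outside (6 later libraries), then 51.4, 58.0 and 63.8 with 7, 8 and 9 libraries. It was 56.1 for the regions that missed the rule by 1 DIV1 peak.

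The lowest number of reads in any listed peak was 10 to 12 in the DIV1 libraries and 7 to 11 in the later ones. A weak later peak would thus not always have been listed at DIV1. More than 12 reads in every later library with a peak were held by 16.4% of gained regions, and more than 12 in at least 5 later libraries by 575 (77.5%). A DIV1 peak lay within 500 bp of 170 gained regions (22.9%) and more than 10 kb from 242 (32.6%), with a median distance of 3208 bp. Reads in peaks were 2.70 to 3.26 M in the DIV1 libraries, 2.04 to 3.07 M at DIV3, 1.65 to 2.70 M at DIV5 and 0.979 to 2.47 M at DIV7. The part of depth in the absence of DIV1 peaks was not tested.

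The gained region of highest mean percentile lay 112765 bp from Zeb2, which encodes a zinc finger repressor of neural development (chr2:45230207-45231065). It held 70, 39 and 68 reads at DIV3, 95, 72 and 43 at DIV5, and 27 and 73 in DIV7 replicates 1 and 2, with a mean percentile of 97.4 and no peak in DIV7 replicate 3. A region 11309 bp from Mrpl39, a gene of the mitochondrial ribosome, held 60, 51 and 57 reads at DIV3, 62, 52 and 39 at DIV5, and 7 and 27 in DIV7 replicates 1 and 2 (mean percentile 88.7). Of the 10 gained regions of highest mean percentile, 6 were at most 300 bp wide, among them those at or near Atrnl1, Tmem196, Sfi1, Pxk and Wdr76. These held only 8 to 22 reads per library. The highest coverage was a median of 64.3% of the reads in the 13 gained regions of at most 300 bp and 28.6% in the others, so a high percentile of maximum signal rested on few overlapping reads there. The remaining 2 of the 10 were the Gm4981 region and a region of chromosome X nearest to Btbd35f28. Next in order came a region 38065 bp from Ets2, which encodes an ETS transcription factor, with 48 to 159 reads, and a region inside Cntnap5a, which encodes a contactin-associated adhesion protein, with 16 to 106 reads.

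Inside long neuronal genes, gained regions occurred at receptor, channel and synapse genes. A gained region lay in the span or within 5 kb of 315 of 21631 protein-coding genes (1.46%), and within 1 kb of a span end for 37 of them (0.171%). Of 21 glutamate receptor genes 4 had one, each inside the gene, and those of the ionotropic Grin2a and Grik1 and the metabotropic Grm5 are described. The Grin2a region (an NMDA receptor subunit; chr16:9902808-9903645) had a peak in all 9 later libraries, with 41, 38 and 31 reads at DIV3, 65, 30 and 21 at DIV5 and 14, 68 and 34 at DIV7. The other regions held 7 to 52 reads at Grik1 and 12 to 34 at Grm5 in the libraries with a peak. The Grm5 region lay 2270 bp from an end of the gene. Of 38 voltage-gated channel genes 4 had one: Cacna2d3 and Cacnb4, auxiliary subunits of calcium channels, Kcnd2, a potassium channel, and Fgf14, a modulator of sodium channels. The Cacnb4 region held 10 to 62 reads, the Kcnd2 region 9 to 34, and Cacna2d3 and Fgf14 had a pair of gained regions each. Both lists are of long genes, with median spans of 318.67 and 300.94 kb against 17.33 kb over all genes. The shares of these and of the lists that follow were not adjusted for gene length. Regions of the opposite pattern lay at 33.3% of the glutamate receptor and 36.8% of the channel genes, against 10.1% of all genes. Regions called in all 12 libraries lay at 71.4% and 73.7%, against 46.6% of all genes. A place at these genes is thus not particular to gained regions.

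Of 18 GABA and glycine receptor genes the 2 with a gained region were Gabra6 and Gabrb2, both at a gene end. Of 15 granule neuron markers Gabra6 and Cbln3 had one, again at a gene end. The median span was 115.71 kb for the receptor genes and 12.22 kb for these markers. The 35 genes of synapse assembly and release held 4, namely Cbln3, Syn3 (a synapsin), Pclo (the active zone scaffold piccolo) and Dlg2 (a postsynaptic scaffold). At Syn3 a pair of gained regions was found, and that of higher percentile held 9 to 40 reads. The Pclo region held 7 to 41 and the Dlg2 region 9 to 41. Slit3 and Robo2, a ligand and a receptor of axon repulsion, were the 2 of 41 guidance genes, with 10 to 34 and 10 to 27 reads. Cntnap5a and Tenm4, a teneurin, were the 2 of 31 adhesion genes, and the Tenm4 region held 20 to 73 reads. Rora, a nuclear receptor, and Foxp1, a forkhead factor, were the 2 of 43 neuronal transcription factor genes, with 10 to 47 and 8 to 33 reads. These lists too are of long genes, with median spans of 101.37 kb for synapse, 231.41 kb for guidance, 417.09 kb for adhesion and 97.1 kb for transcription factor genes. Regions of the opposite pattern lay at 28.6% of the synapse, 43.9% of the guidance, 32.3% of the adhesion and 39.5% of the transcription factor genes. They lay at 11.1% of the GABA and glycine receptor genes and 20% of the granule neuron markers.

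Genes of the granule progenitor and the cell cycle held 1 of 17, Ptch1, the receptor and target of Hedgehog signalling, with 12 to 68 reads inside the gene. The 22 activity-regulated genes held 0 and the 17 glia markers held 0, against a share of 1.46% over all genes. Their median spans were 7.88 and 19.61 kb, against 17.33 kb over all genes. In lists of this size nothing is read from a count of 0. Of 14 Purkinje cell markers 3 had a gained region, all 3 inside the gene and Rora among them, and of 13 markers of interneurons and unipolar brush cells 1 had (Sorcs3, with 9 to 90 reads). A region in a marker gene does not show that its cell type was present, and the part of other cell types in the gained regions was not tested. These 13 lists overlap (Rora, Gabra6 and Cbln3 stand in 2 lists each).

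Among genes with at least 3 gained regions, Trpm3 and Ntrk3 were the known neuronal ones. Trpm3, a cation channel gene, held 4 over chr19:22437259-22804006, of which that of highest percentile (chr19:22554334-22555179) had 38, 21 and 27 reads at DIV3, 48, 15 and 20 at DIV5 and 38, 80 and 42 at DIV7. Ntrk3, the gene of the neurotrophin-3 receptor, held 3 over chr7:78263793-78440273, of which that of highest percentile had 17 to 84 reads. Both genes also held many regions already called at DIV1. Each had 13 regions with a peak in at least 7 of the 12 libraries, in the span or within 5 kb. Of these, 8 at Trpm3 and 7 at Ntrk3 had a peak in all 3 DIV1 libraries. The other genes with at least 3 gained regions were Gm38510 and Rex2 with 5 each, Gm7592 with 4, and Gm21154 and Zfp980 with 3 each. These are predicted or zinc finger genes.

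Other gained regions lay close together, many of them among families of similar genes. Runs of at least 3 gained regions, each within 100 kb of the next, numbered 37. They held 170 regions (22.9%), of which 62 were on chromosome X and 28 on chromosome 14. The longest had 13 regions over chrX:54378980-54797465, among predicted genes from Gm14590 to Gm16430. The next had 12 over chr13:65361017-65656676, among Gm19428 and Gm31714. Runs of 7 lay at Gm5797 and other predicted genes on chromosome 14 (chr14:7120155-7446618) and at the vomeronasal receptor gene Vmn2r121 on chromosome X (chrX:124345128-124672485). Runs of 6 included the major urinary protein genes beside Mup17 on chromosome 4, the zinc finger genes Rex2 and Zfp993 on chromosome 4, and Btbd35f6 on chromosome X.

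Counts in these arrays are uncertain, since reads of near-identical copies can be assigned to any of them. A set of 49 gained regions had the same width, reads and maxima as at least 1 other gained region in every library, in 18 such sets. The regions at the homeobox genes Rhox4a and Rhox4a2 both read 12, 34 and 19 at DIV3, 26, 20 and 36 at DIV5 and 35 in DIV7 replicate 3. A predicted gene (symbol with Gm, LOC or Rik) was nearest to 99 of the 170 regions in runs (58.2%) and to 70 of the 572 outside (12.2%). The other end of the scale was more numerous, since 484 gained regions had no other within 100 kb.

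Chromosome X held 83 gained regions (11.2%), against 4.23% of all regions, 1.36% of regions called in all 12 libraries and 0.620% of the regions with the opposite pattern. The share was 13.7% among the regions just outside in the later libraries and 13.9% among those with 1 DIV1 peak. It was 4.11% (3 of 73) among the gained regions called in all 9 later libraries and 4.03% when a library counted only with peaks over at least 50% of the region. With 1 library left out it ran from 7.34%, without DIV7 replicate 3, to 14.6%, without DIV3 replicate 1. Chromosome 14 held 76 (10.2%, against 5.62% of all regions). The share of a library's own peaks on chromosome X moved with the library. It was 1.66, 2.73 and 2.26% at DIV1, 2.06, 4.09 and 4.25% at DIV3, 3.83, 4.60 and 5.88% at DIV5, and 4.80, 4.20 and 6.12% at DIV7. DIV3 replicate 1 was thus within the range of DIV1 and all other later libraries were above it.

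The same library stood apart at the gained regions. DIV3 replicate 1 had a peak in 33.7% of the 83 on chromosome X and in 31.2% of the 170 in runs, while the other later libraries had 79.5 to 98.8% and 82.9 to 95.3%. At the 551 autosomal regions outside runs it had 83.1%, inside the range of the other libraries. DIV7 replicate 3 was the reverse, with 97.6% on chromosome X, 95.3% in runs and 57.5% at the autosomal regions outside runs, where DIV7 replicate 1 had 67.2% and the other later libraries 83.1 to 96.4%. Absent calls numbered 1109 over all gained regions, and 561 of them fell in the 3 later libraries of 51-base reads, DIV3 replicate 1, DIV5 replicate 3 and DIV7 replicate 3. All DIV1 libraries were of 51-base reads, and 206 gained regions lacked a peak only in later libraries of that length. The part of read length, depth and the library in these absences was not tested. With only the 51-base libraries, no DIV1 peak and a peak in all 3 later libraries were found at 452 regions.

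**Figure D3:**
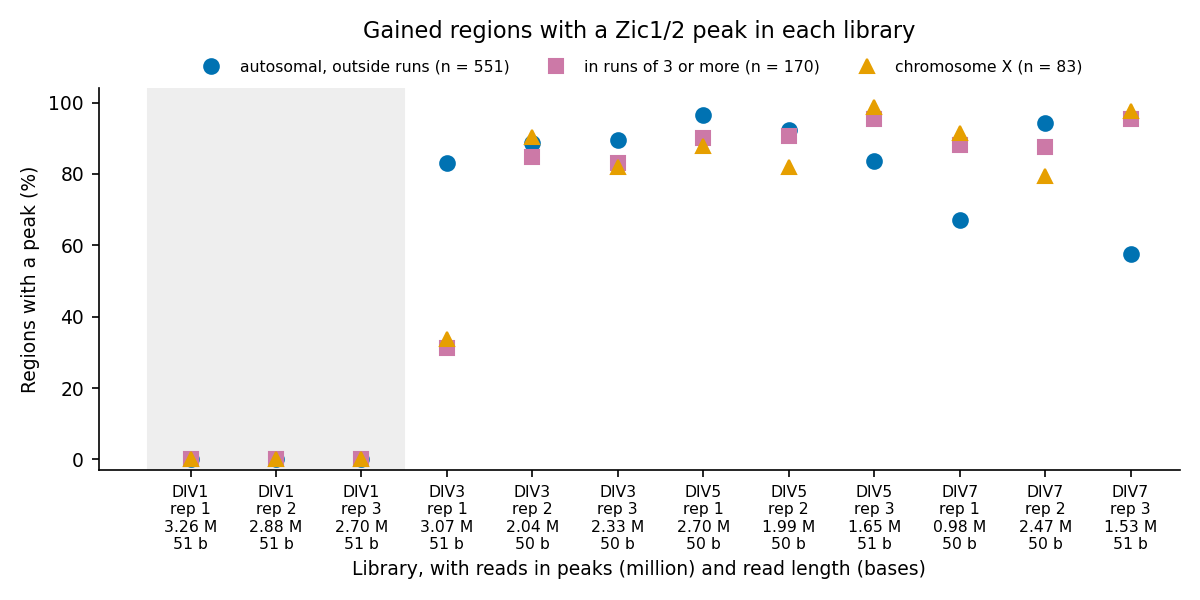
Share of gained regions (%) with a peak in each library, for autosomal regions outside runs (circles, 551), regions in runs of at least 3 (squares, 170) and chromosome X (triangles, 83, of which 62 are also in runs); labels give reads in peaks and read length. DIV3 replicate 1 falls to 33.7 and 31.2% for chromosome X and runs, DIV7 replicate 3 to 57.5% for the autosomal regions, and DIV1 is 0 by the rule.

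The rule compared DIV1 with the later days and did not itself use the change from DIV3 to DIV7. The test is still not independent of the rule, since choosing regions without a DIV1 peak can favour those that rise with the day. The gained regions called in all 9 later libraries also had a lower median percentile (63.8) than regions called in all 12 libraries (83.4). The part of this choice in the shares given below was not tested. Ranks of maximum signal at the 12955 regions called in all 9 later libraries were turned into normal scores and fitted with limma, over all of these regions, with Benjamini-Hochberg adjustment. The fit held the 73 gained regions with a peak in all 9 libraries, and the other 669 lacked at least 1 value. With the day as a number, 0 of 73 passed an adjusted p of 0.05, as did 0% of all regions (lowest limma adjusted p = 0.0522 and 0.0511). That none passed does not show that the signal stayed the same. At an unadjusted p under 0.05 were 10 of the 73, 8 of them rising, while over all regions the shares were 13.1% in both directions and 5.62% rising. The coefficient was above 0 in 49 of 73, against 52% of all regions, and its median was 0.0995 normal score units per day against 0.00686.

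In the contrast of DIV7 against DIV3, 1 of the 73 passed and rose, while 0.0386% of all regions passed (5 of 12955) and 0.0154% passed and rose. The 1 region that passed lay inside Negr1 (chr3:157208949-157210168), which encodes a neuronal adhesion protein of the IgLON family, 106296 bp from a gene end and 18778 bp from the nearest DIV1 peak. It held 27, 25 and 19 reads at DIV3, 98, 89 and 36 at DIV5 and 63, 137 and 65 at DIV7. Every DIV5 and DIV7 library exceeded every DIV3 library, and 4 of those 6 had fewer reads in peaks in all than any DIV3 library. Its percentile among the regions fitted rose from 13.1 ± 4.73 (SD, n = 3) at DIV3 to 92.4 ± 3.67 at DIV7 and was 78.4 ± 15.2 at DIV5. The difference was 2.60 ± 0.366 (SE) normal score units (limma adjusted p = 0.0349), and the trend was 0.650 ± 0.103 per day (limma adjusted p = 0.0522). The coefficient was positive under all 19 settings tried, but the difference passed in 6 of them (limma adjusted p from 0.0145 to 0.273). It did not pass when any library but DIV7 replicate 2 was left out, with read length or depth as a term, among regions of at most 2 kb, or without the 3 libraries of fewest reads. An unadjusted p under 0.05 with a rise was found in 8 of the 73 and in 5.56% of all regions.

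Cbln3 had the next smallest p among gained regions with a positive coefficient, with DIV3 libraries at percentile 9.50 ± 7.61 (SD, n = 3), those of DIV5 at 27.1 ± 29.2 and those of DIV7 at 56.6 ± 30.9. Its trend of 0.431 ± 0.136 (SE) per day did not pass (limma adjusted p = 0.192). A region 21656 bp from Zfp970, a zinc finger gene in an array on chromosome 2, had 0.275 ± 0.0930 per day (limma adjusted p = 0.220). Among negative coefficients the smallest p belonged to the regions nearest to Ndfip1, which encodes an adaptor of ubiquitin ligases (-0.261 ± 0.101 per day, limma adjusted p = 0.281), Dsc3, a desmosomal cadherin (-0.337 ± 0.146, limma adjusted p = 0.342), and Adcy8, an adenylyl cyclase (-0.182 ± 0.105, limma adjusted p = 0.496). None of these passed. At Dsc3 the libraries of DIV3 and DIV7 overlapped, with percentiles of 21.6 to 85.5 and 4.80 to 46.2.

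**Figure D4:**
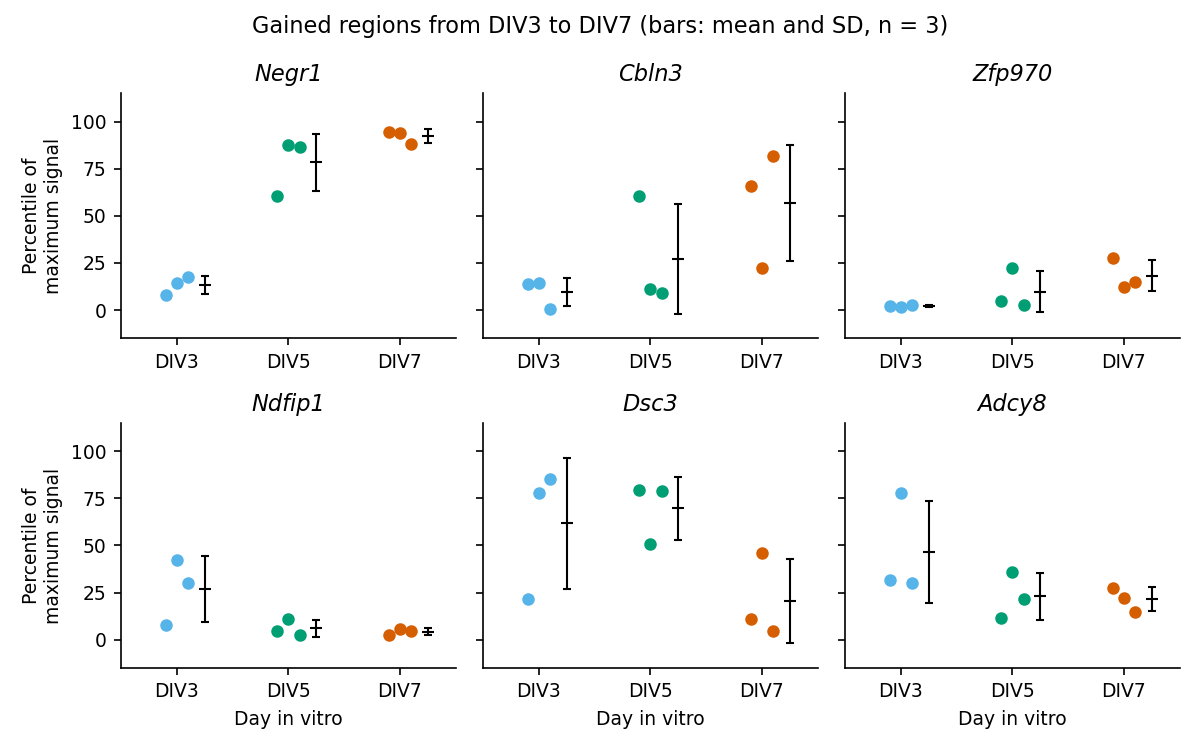
Percentile of maximum signal, among regions called in all 9 later libraries, for the 3 gained regions of smallest trend p with a positive (top) and the 3 with a negative coefficient (bottom); each point is 1 library, bars give mean and SD (n = 3). At Negr1 the DIV3 libraries lie between 8.01 and 17.3 and those of DIV5 and DIV7 between 60.8 and 94.8.

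When all 24294 regions called in at least 7 later libraries were fitted and a missing peak was given the lowest rank, all 742 gained regions entered. The trend then passed in 10 of them, 8 rising and 2 falling, while 1% of all regions passed and 0.284% passed and rose (limma with Benjamini-Hochberg adjustment). The rule allows at most 2 missing peaks but does not say at which day, so this fit also reads where the missing peaks fall. The 8 that rose were nearest to Negr1, Zfp970, Abcb1b, Dpysl2, Kpna4, Mfsd6l, Slc12a4 and 4931429L15Rik. Dpysl2 encodes a collapsin response mediator of axon growth and Abcb1b a drug efflux pump. The 2 that fell were nearest to Sgk1, which encodes a kinase induced by glucocorticoid, and Sgcd, which encodes a sarcoglycan. At the Sgk1 region (chr10:21868342-21869206) the reads were 53, 35 and 25 at DIV3, 60, 42 and 26 at DIV5, and 27 in DIV7 replicate 2, the only DIV7 library with a peak. An unadjusted p under 0.05 was reached by 156 gained regions, 128 of them rising, against 16.6% and 7.29% of all regions. DIV7 against DIV3 passed in 6 gained regions in this fit, 4 rising and 2 falling, while 0.831% of all regions passed and 0.21% passed and rose. An unadjusted p under 0.05 in that contrast with a rise was found in 127 gained regions and in 7.38% of all regions.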

How the data were processed

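Zic1/2 CUT&RUN peak lists of 12 libraries of mouse granule neurons, 3 per day, were used, with groups taken from the labels. The submitters' processing notes name SEACR 1.3, MACS2 2.1, STAR 2.7.2b, Trimmomatic 0.38, bedtools 2.25.0, DESeq2 1.36.0 and FastQC, with no role or order. No control, threshold or removal of blacklisted loci is recorded in the labels or lists. The deposited files give, per peak and library, the total and the maximum signal, which are coverage values that the authors did not scale to depth. The total was a whole multiple of 50 or 51 in each list, and it was divided by that number to give whole reads per peak. Only reads in peaks are known, so depth here depends on the peaks called.

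Peaks that overlapped by 1 bp or more were joined, with Python 3.11.15, pandas 2.3.3, NumPy 2.4.6 and SciPy 1.17.1. Gene spans and promoter windows came from RefSeq (GRCm38.p6); mm10 is another name of that build. A gene end is either end of a protein-coding span within 1 kb. Change over DIV3, DIV5 and DIV7 was tested with limma 3.58.1 (R 4.3.3) on normal scores of the ranks of maximum signal, two-sided, as a trend and as DIV7 against DIV3, and was tested on simulated data. The p-values measure the spread between the deposited libraries. The alternatives were other thresholds of the rule, the overlap, other scalings, covariates, and each library left out. The regions and gene lists were chosen with earlier results of these data known. Named regions were those of highest mean percentile, at gene ends, of smallest p, in the lists, in runs, widest and next to the thresholds, and others are said to be chosen after their values were seen. Some regions that the naming covers are not reported here.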

Additional observations from a re-analysis of the deposited data

How the results depend on the processing

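The number of gained regions depended on the rule. It was 1566 with at least 6 of 9 later libraries, 302 with at least 8 and 73 with all 9, 1988 when 1 DIV1 peak was allowed, 149 when a library counted only with peaks over 50% of the region or more, 371 with the maximum-signal parts of peaks, and 452 with the 51-base libraries alone. Of the 742 gained regions, the 50% rule overlapped only 49, the maximum-signal parts 178 and the 51-base libraries 215. The regions themselves thus changed, and not only their number. Leaving out 1 library gave 341 to 1435. The same rule with another day without peaks gave 199 regions for DIV3, 408 for DIV5 and 2210 for DIV7, so DIV7 alone was absent more often than DIV1 alone. The share at gene ends was 6.33% with a 2 kb window (13.3% of all regions), 14.2% with 5 kb (22.4%) and 2.97% by the middle of the region (7.95%), and 3.34 to 5.79% with 1 library left out. In alternatives chosen after seeing the data it was 15.1% with the maximum-signal parts (13.3% of all regions so merged) and 6.64% with the 51-base libraries alone (11.7%). The trend passed in 3 gained regions with total signal (1.65% of all regions fitted), in 1 with log2 signal centred on the library median (0.124%) and in 1 with log2(signal + 1) (0.178%), and in 10 with missing peaks ranked lowest (1%), against 0; with 1 library left out it stayed at 0. DIV7 against DIV3 passed in 5 with total signal (1.64%) and 6 with missing peaks ranked lowest (0.831%), against 1, and in 0 among regions of at most 2 kb, with log2 reads in peaks or read length as a term, and without the 3 libraries of fewest reads. With 1 library left out it was 0 to 1, and 1 only without DIV7 replicate 2 (0.347% of all regions). With the replicate number as a block, 0 gained regions passed either fit. No pairing by replicate number was seen. Correlations of deviations from the day means ran from -0.110 to 0.152 for 9 same-number pairs and from -0.159 to 0.224 for 18 others. Such weak correlations cannot show that same-number libraries were unrelated. The coefficients of the regions at or near Negr1, Cbln3, Zfp970, Ndfip1, Dsc3 and Adcy8 kept their sign in all 19 settings of both fits; other named regions were not followed through these settings. The region at Gabra6 was kept under 20 of 23 rules, as were those at Cbln3 and Amer2, and those at Gabrb2 and Camk2a under 11. Some of these rules could not drop an autosomal gained region, so these counts overstate stability. They are at least 6 later libraries, 1 DIV1 peak allowed, a DIV1 library left out, and chromosome X removed. The number of later libraries with a peak, which the rule used, also fixed other outcomes. Cbln3 and Amer2, with 9, pass the thresholds of 8 and 9 by definition, and Gabra6, with 8, passes that of 8. With 1 later library left out, all 3 still have at least 7 unless the merged region splits. Most of the 20 rules thus say little about these regions. None of these named regions was kept with peaks over 50% of the region or with the maximum-signal parts. Most gained regions held few reads per library, so absence at DIV1 means only that no peak was listed.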

Other observations

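Some regions that the text has not described lay just on either side of the rule. Of the regions with no DIV1 peak and 6 later peaks, the highest mean percentiles were 96.2 for a region 171 bp wide nearest to Arrdc3, 95.1 for a region of 226 bp inside Arfgef3 and 94.6 for a region of 197 bp nearest to Hs3st3a1, each with 8 to 23 reads per library. Of the regions kept out by a single DIV1 peak, the highest were near Wls, which encodes the carrier of secreted Wnt proteins (19 reads in DIV1 replicate 3 and 16 to 38 in the 8 later libraries with a peak), inside Efna5, which encodes an ephrin ligand of axon guidance (18 reads in DIV1 replicate 1 and 11 to 29 later), and 17904 bp from Ndufb3 (19 reads in DIV1 replicate 2 and 13 to 30 later). All 6 were at most 236 bp wide. The widest gained regions were 3102 bp on chromosome X, 238421 bp from Btbd35f27, with 17 to 90 reads, 2006 bp at Eno2, and 1924 bp on chromosome 13, 29552 bp from Gm46427, with 8 to 75 reads.

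A microRNA gene lay within 5 kb of 2 gained regions. Mir8100 was overlapped by a gained region. Mir26a-2 lay 3299 bp from the gained region inside Ctdsp2, its host gene, which encodes a phosphatase of RNA polymerase (chr10:126990863-126992231). That region had a peak in all 9 later libraries, with 11, 21 and 16 reads at DIV3, 11, 23 and 17 at DIV5 and 9, 64 and 31 at DIV7, a trend of 0.312 ± 0.138 (SE) normal score units per day that did not pass (limma adjusted p = 0.352), and a DIV1 peak 30 bp away.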
